A study of Mus musculus with 6 samples.

Results

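The expression of 9 genes that encode histone deacetylases and the corepressor scaffolds that carry them was examined in atrioventricular canal regions of mouse hearts at embryonic day 15.5 (E15.5). The genes were chosen by name, as Hdac1, Hdac2, Hdac3, Hdac4, Hdac5, Hdac7, Hdac9, Ncor1 and Sin3a, and take up 10 of the 18810 gene identifiers measured, because the annotation gives the symbol Hdac4 to 2 identifiers. Libraries were made from 3 Scx-/- and 3 Scx+/+ embryos on a C57BL/6 background, with 1 library per heart and no pooling, and the wild-type embryos were littermate controls. Scx encodes scleraxis, a basic helix-loop-helix transcription factor of tendons and heart valves, and the null allele is present in every cell of the Scx-/- embryos. The comparison asks which of these genes differ in level when Scx is absent during valve remodeling. The dissected tissue held the mitral, tricuspid and aortic valves and was not sorted, so that fewer cells of a type and less RNA per cell cannot be told apart.

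Histone deacetylases remove acetyl groups from histone tails, which compacts chromatin and lowers transcription. The class I enzymes Hdac1, Hdac2 and Hdac3 are catalytically active and work inside large complexes, of which Sin3a and Ncor1 are scaffolds. The class IIa enzymes Hdac4, Hdac5, Hdac7 and Hdac9 have little activity of their own, bind MEF2 transcription factors, move between nucleus and cytoplasm under the control of kinases and 14-3-3 proteins, and are known in the heart for restraining growth of muscle cells and for shaping endothelium.

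None of the 10 identifiers was called different between Scx-/- and Scx+/+ regions, where a call means that the unadjusted p of limma lies under 0.05, and none passed after Benjamini-Hochberg adjustment over all 18810 genes (adjusted p of 0.967 to 1.0). Of all genes, 731 were called (3.89%), 531 of them higher in Scx-/- (2.82%) and 200 lower (1.06%), and after adjustment 0 remained (0.0%). The excess of higher calls depended on scaling, since with library medians set to 0 there were 281 higher and 365 lower calls, after quantile normalization 352 and 353, and after removal of length and GC trends 299 and 362. The log2 fold changes of the 10 identifiers had a median of 0.02, with 5 above 0 and 5 below, beside a median of 0.10 over all genes, of which 63.8% were above 0. With library medians set to 0 both medians moved down together, to -0.09 and 0. Values are RPKM, which are reads scaled to exon length and library depth, and fold changes are differences on the scale of log2(RPKM + 0.1), Scx-/- minus Scx+/+, a scale that understates changes of weakly expressed genes. Values per library are given in the order of replicates 1, 2 and 3 of a genotype. Replicates are separate embryos. The p-values of limma set the difference between genotypes against the spread between libraries within a genotype, moderated over all genes.

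Library depth was 46429972 to 68571009 reads. In Scx+/+ replicate 2 the 10 strongest genes took 56.9% of all RPKM, beside 30.7% to 43.9% in the other 5 libraries, and that library also had the most genes at the fill-in value that replaces low values (2252, beside 1088 to 1465). Scx itself does not check the genotype in this table, because its level overlapped between genotypes. It was 33.6, 18.6 and 82.9 RPKM in the Scx-/- libraries and 29.5, 58.3 and 26.0 RPKM in the Scx+/+ libraries (log2 fold change 0.07, SE 0.51, limma adjusted p = 0.996). RPKM were summed over the whole gene, so that the part of the locus that was deleted was not resolved. Why Scx was not lower in Scx-/- was not tested. The paper reports a large decrease of an exon of Scx in its null samples before sequencing, which values per gene cannot repeat.

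Levels spanned a wide range at E15.5. Hdac2 was the most abundant, at a mean of 56.4 RPKM over the 6 libraries, followed by Hdac3 (16), Ncor1 (9.83), Sin3a (8.04), Hdac1 (7.41), Hdac9 (6.98), Hdac5 (2.97), Hdac4 (1.61), the second Hdac4 identifier (0.986) and Hdac7 (0.726). Hdac2 exceeded Hdac3 by 2.42-fold to 4.45-fold within each library, and their ranges did not overlap. Hdac9 exceeded Hdac5 in 6 of 6 libraries, by 1.69-fold to 2.92-fold, although the ranges of both genes overlapped. All other neighbours in this order overlapped, and none of the 10 identifiers was at the fill-in value in any library. Means reached 1 RPKM for 8 of the 10.

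**Figure D1:**
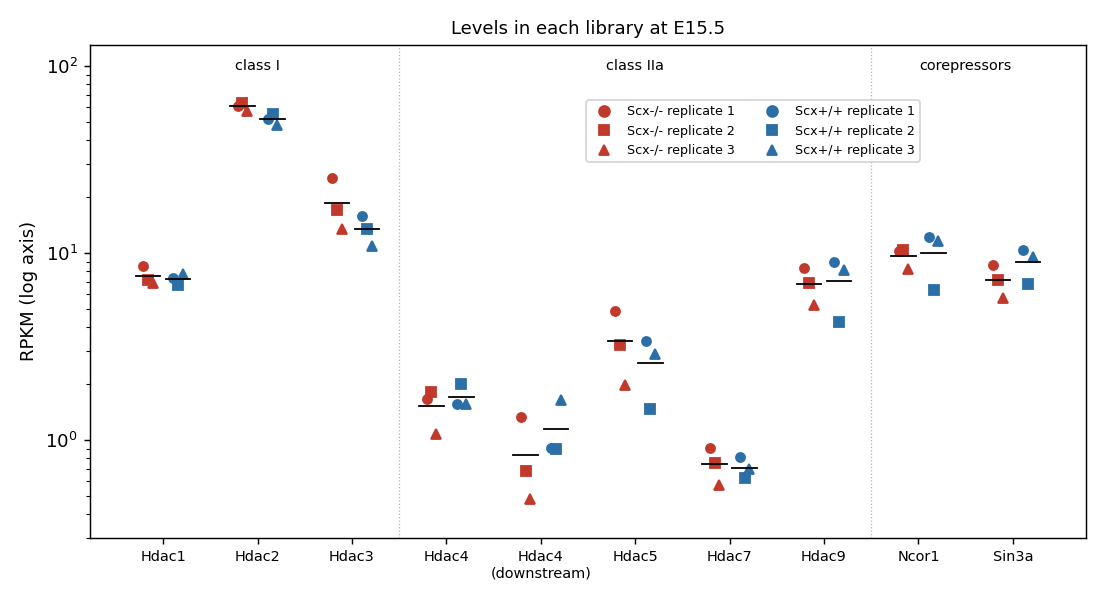
RPKM of each gene in each library on a log axis, with red symbols for Scx-/- and blue for Scx+/+, a shape per replicate number and a black line at each genotype mean (n = 3). Hdac2 stands above all others at 48.5 to 63.5 RPKM, and the genotypes overlap for every gene except Hdac2.

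Hdac2 and Hdac9 carried most of the RPKM of their class, and the 250 bases upstream of their annotated starts are shown for this reason. The sequences are from RefSeq on GRCm38.p6, printed 5′ to 3′ on the strand of the gene, and capitals mark E boxes, the CANNTG hexamer to which basic helix-loop-helix factors as a class bind, which reads the same pattern on both strands. Hdac9 has a pair of annotated starts far apart. The windows are chr10:36974294-36974543 (+) for Hdac2, chr12:34917096-34917345 (-) for the upstream start of Hdac9 and chr12:34528890-34529139 (-) for its downstream start.
Hdac2: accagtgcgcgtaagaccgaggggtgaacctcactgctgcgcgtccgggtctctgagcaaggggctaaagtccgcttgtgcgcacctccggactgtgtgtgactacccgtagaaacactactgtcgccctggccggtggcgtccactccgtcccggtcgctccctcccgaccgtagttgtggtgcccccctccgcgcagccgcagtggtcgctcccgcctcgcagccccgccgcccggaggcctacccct
Hdac9, upstream start: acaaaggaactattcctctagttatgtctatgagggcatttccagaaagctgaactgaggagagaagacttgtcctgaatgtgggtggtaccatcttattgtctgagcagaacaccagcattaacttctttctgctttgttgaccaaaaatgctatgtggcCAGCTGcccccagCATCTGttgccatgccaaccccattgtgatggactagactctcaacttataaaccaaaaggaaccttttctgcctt
Hdac9, downstream start: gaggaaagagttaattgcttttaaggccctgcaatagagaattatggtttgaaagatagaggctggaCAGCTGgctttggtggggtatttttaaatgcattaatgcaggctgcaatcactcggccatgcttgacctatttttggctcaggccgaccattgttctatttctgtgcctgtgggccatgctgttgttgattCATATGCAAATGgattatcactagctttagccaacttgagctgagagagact
The Hdac2 window held 0 E boxes, and the Hdac9 windows held 2 and 3. In the table of promoters, 7 of the 9 genes matched with 13 starts, of which 6 held the hexamer, beside 66.2% of all 32851 mouse promoter windows of this length. A match describes letters only, and binding was not measured in these libraries.

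Among the class I enzymes, Hdac1 (ENSMUSG00000028800, chr4:129193348-129219957, minus strand, mm9) is a catalytic subunit of the Sin3, NuRD and CoREST complexes. It was 8.57, 7.16 and 6.95 RPKM in the Scx-/- libraries and 7.39, 6.70 and 7.70 RPKM in the Scx+/+ libraries. The genotypes overlapped throughout, with means of 7.56 ± 0.878 and 7.26 ± 0.517 RPKM (SD, n = 3), and Hdac1 had the narrowest range of the 10 identifiers, 1.28-fold from lowest to highest library. Its log2 fold change was 0.05 (SE 0.19, 95% confidence interval -0.37 to 0.48, limma adjusted p = 0.99). The level of Hdac1 is uncertain, because the genome holds intronless near-copies of its transcript. The closest is annotated as Gm10093 on chromosome 17, is 98.8% identical over 2004 aligned bases and was listed at 15.1 to 25.6 RPKM, above Hdac1 in every library. Of the reads counted at Hdac1 and Gm10093 together, 35.7% to 44.5% were counted at Hdac1, with the highest share in Scx-/- replicate 3. How reads that match several places were assigned is not given in the sources used here, so the order of Hdac1 among the genes is not fixed by these values. Gm10093 had a log2 fold change of 0.03 (SE 0.23, limma adjusted p = 0.996).

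Hdac2 (ENSMUSG00000019777, chr10:36694350-36721695, plus strand, mm9), the close relative of Hdac1 in the same complexes, was 61.4, 63.5 and 57.4 RPKM in the Scx-/- libraries and 52.1, 55.6 and 48.5 RPKM in the Scx+/+ libraries. All 3 Scx-/- libraries lay above all 3 Scx+/+ libraries, with means of 60.7 ± 3.12 and 52.1 ± 3.57 RPKM (SD, n = 3). Hdac2 was the only identifier of the 10 without overlap, beside 7.19% of all genes that were higher without overlap and 2.31% that were lower. An exact permutation test, two-sided, gave p = 0.1, the smallest p that 3 against 3 libraries allow, here and in the tests that follow. The log2 fold change was 0.22 (SE 0.15, 95% confidence interval -0.12 to 0.56, limma adjusted p = 0.967). Once library medians were set to 0, the genotypes overlapped. Hdac2 was the best measured of the genes, with 11570 to 19071 reads per library.

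Hdac3 (ENSMUSG00000024454, chromosome 18, minus strand) is the catalytic subunit of the NCoR complex. It was 25.3, 17.0 and 13.4 RPKM in the Scx-/- libraries and 15.8, 13.5 and 10.9 RPKM in the Scx+/+ libraries. Scx-/- replicate 1 stood above the other 5 libraries, and Scx-/- replicate 3 lay within the wild-type range. Means were 18.6 ± 6.11 and 13.4 ± 2.47 RPKM (SD, n = 3), with a log2 fold change of 0.43 (SE 0.26, 95% confidence interval -0.15 to 1.02, limma adjusted p = 0.967). It was 0.19 without Scx-/- replicate 1 and 0.29 without Scx+/+ replicate 3, but 0.64 without Scx-/- replicate 3 and 0.56 without Scx+/+ replicate 1.

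The ratio of Hdac2 to Hdac1, which does not depend on the scaling of a library, was 7.16, 8.87 and 8.25 in the Scx-/- libraries and 7.05, 8.30 and 6.29 in the Scx+/+ libraries, and overlapped. Summed over Hdac1, Hdac2 and Hdac3, class I RPKM were 95.3, 87.6 and 77.7 in the Scx-/- libraries and 75.4, 75.8 and 67.1 in the Scx+/+ libraries. The Scx-/- sums were the higher ones in every library, at 86.9 ± 8.79 beside 72.7 ± 4.92 (SD, n = 3), and the gap between the lowest Scx-/- and the highest Scx+/+ library was small. With library medians set to 0 that gap narrowed, with Scx-/- replicate 3 and Scx+/+ replicate 2 both at 78.5 RPKM after rounding. The genotypes still did not overlap. Hdac2 made up 64.4% to 73.8% of this sum, so the sum is not independent of the Hdac2 values. Of all single genes, 7.19% were higher in Scx-/- without overlap before this scaling.

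The class IIa enzymes were less abundant, and their main identifiers varied over libraries by 1.58-fold to 3.34-fold. Hdac9 (ENSMUSG00000004698, chr12:34732451-35213754, minus strand, mm9), a repressor of MEF2 in muscle, was their most abundant gene at 51.2% to 61.2% of the class IIa sum. It was 8.33, 6.93 and 5.30 RPKM in the Scx-/- libraries and 8.93, 4.30 and 8.09 RPKM in the Scx+/+ libraries. The low libraries were Scx+/+ replicate 2 and Scx-/- replicate 3, so that each genotype held high and low values. Means were 6.85 ± 1.52 and 7.10 ± 2.47 RPKM (SD, n = 3), and the log2 fold change was -0.01 (SE 0.31, 95% confidence interval -0.70 to 0.69, limma adjusted p = 1.0).

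Hdac5 (ENSMUSG00000008855, chr11:102055746-102091480, minus strand, mm9), a signal-responsive repressor of muscle growth genes, was 4.92, 3.22 and 1.96 RPKM in the Scx-/- libraries and 3.37, 1.47 and 2.88 RPKM in the Scx+/+ libraries. The same pair of libraries was lowest, and the spread within a genotype exceeded the difference between them. The range from lowest to highest library was 3.34-fold, and the log2 fold change was 0.36 (SE 0.41, 95% confidence interval -0.57 to 1.29, limma adjusted p = 0.967). Without Scx+/+ replicate 2 it was 0.01, without Scx-/- replicate 1 0.04, and without Scx-/- replicate 3 0.69. At this spread a 2-fold higher level in Scx-/- lies inside the interval.

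Hdac4, known for restraining chondrocyte hypertrophy through MEF2, has a main identifier (ENSMUSG00000026313, chr1:93829334-94044970, minus strand, mm9) and a single-exon identifier that begins 1580 bases beyond it on the same strand (ENSMUSG00000073617, chr1:93825362-93827753). The main identifier was 1.66, 1.81 and 1.07 RPKM in the Scx-/- libraries and 1.56, 2.0 and 1.55 RPKM in the Scx+/+ libraries. Among Scx-/- libraries, only replicate 3 lay outside the range of the wild type. Its log2 fold change was -0.18 (SE 0.32, 95% confidence interval -0.91 to 0.55, limma adjusted p = 0.978). The downstream identifier was 1.33, 0.680 and 0.483 RPKM in the Scx-/- libraries and 0.905, 0.891 and 1.63 RPKM in the Scx+/+ libraries, on 69 to 267 reads. It varied by 3.37-fold over the libraries and overlapped between genotypes (log2 fold change -0.47, SE 0.46, 95% confidence interval -1.50 to 0.56, limma adjusted p = 0.967). The ratio of the downstream to the main identifier ran from 0.377 to 1.05, and whether both belong to 1 transcript was not tested.

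Hdac7 (ENSMUSG00000022475, chr15:97623095-97674933, minus strand, mm9), the class IIa enzyme known from endothelium and vessel integrity, was the least abundant. It was 0.905, 0.750 and 0.572 RPKM in the Scx-/- libraries and 0.807, 0.623 and 0.696 RPKM in the Scx+/+ libraries, on 160 to 278 reads. The genotypes interleaved, and the log2 fold change was 0.05 (SE 0.39, 95% confidence interval -0.83 to 0.92, limma adjusted p = 0.996). Endothelial markers were well above it, with Pecam1 at 33.3 to 39.4 RPKM. Cdh5 was 18.2, 11.6 and 10.8 RPKM in the Scx-/- libraries and 19.2, 17.6 and 15.5 RPKM in the Scx+/+ libraries (log2 fold change -0.40, limma adjusted p = 0.967). Over all 8 endothelial markers the median log2 fold change was 0.1, with 5 above 0 and 3 below.

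The sum of Hdac4 (main identifier), Hdac5, Hdac7 and Hdac9 was 15.8, 12.7 and 8.90 RPKM in the Scx-/- libraries and 14.7, 8.39 and 13.2 RPKM in the Scx+/+ libraries. It overlapped between genotypes, at 12.5 ± 3.46 and 12.1 ± 3.29 RPKM (SD, n = 3). The ratio of the class I to the class IIa sum was 5.07 to 9.03 and was highest in Scx+/+ replicate 2 and Scx-/- replicate 3.

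**Figure D2:**
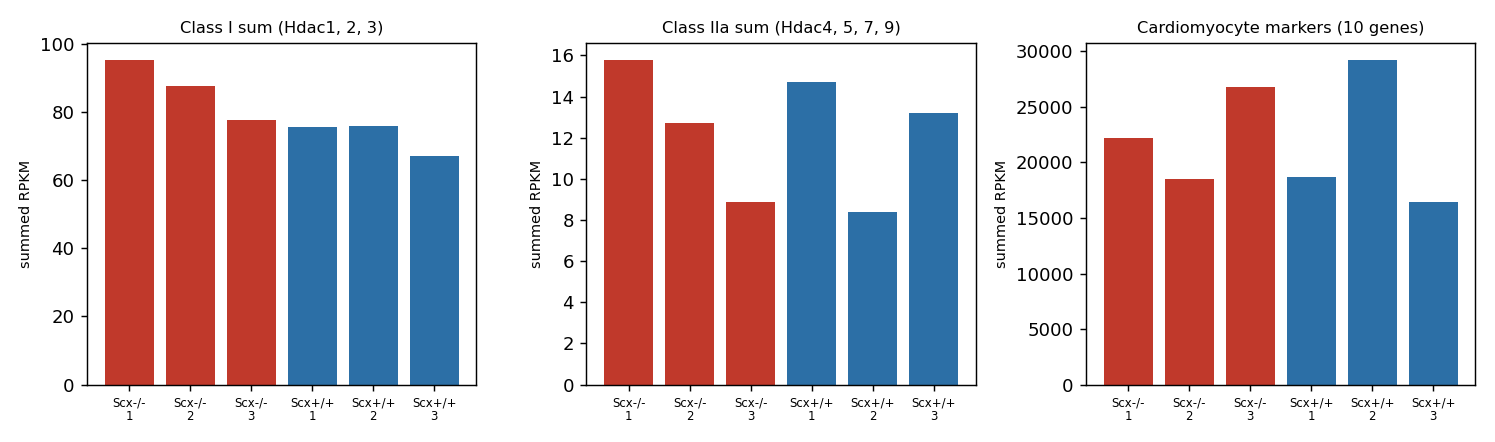
Summed RPKM per library (bars, linear axes from 0, red Scx-/- and blue Scx+/+) of Hdac1, Hdac2 and Hdac3, of Hdac4, Hdac5, Hdac7 and Hdac9, and of 10 cardiomyocyte markers. The class IIa sum is lowest, at 8.90 and 8.39 RPKM, in the libraries where the cardiomyocyte markers sum highest, at 26796 and 29257 RPKM.

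Of the scaffolds, Ncor1 (ENSMUSG00000018501, chr11:62129928-62272043, minus strand, mm9) binds Hdac3 and links it to nuclear receptors and other repressors. It was 10.2, 10.4 and 8.18 RPKM in the Scx-/- libraries and 12.2, 6.32 and 11.6 RPKM in the Scx+/+ libraries. Scx+/+ replicate 2 was the lowest of all and the other wild-type libraries the highest. Means were 9.60 ± 1.24 and 10 ± 3.25 RPKM (SD, n = 3), with a log2 fold change of -0.01 (SE 0.27, 95% confidence interval -0.63 to 0.60, limma adjusted p = 0.998). A near-copy of part of the Ncor1 transcript on the X chromosome, annotated as Gm6743, was 91.6% to 94.6% identical over its aligned stretches. It was listed at 2.29 to 3.96 RPKM on 128 to 285 reads, few beside the 3760 to 10198 reads of Ncor1. Gm6743 was lower in Scx-/- without overlap, as were 2.31% of all genes (log2 fold change -0.47, SE 0.25, limma adjusted p = 0.967, exact permutation p = 0.1).

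Sin3a (ENSMUSG00000042557, chr9:56919847-56976173, plus strand, mm9), the scaffold of the Sin3 complex with Hdac1 and Hdac2, was 8.62, 7.15 and 5.72 RPKM in the Scx-/- libraries and 10.4, 6.84 and 9.52 RPKM in the Scx+/+ libraries. The wild-type libraries were the higher ones except for replicate 2, which lay between Scx-/- replicates 2 and 3. Means were 7.16 ± 1.45 and 8.92 ± 1.85 RPKM (SD, n = 3). The log2 fold change was -0.31 (SE 0.24, 95% confidence interval -0.85 to 0.23, limma adjusted p = 0.967). It was -0.16 without Scx-/- replicate 3 and -0.49 without Scx+/+ replicate 2. An opposite-strand noncoding gene, 2410133F24Rik, shares 3.8% of the exon bases of Sin3a and cannot be told apart there without strand, which is not stated for the counting. The other opposite-strand overlaps, at Hdac4, Hdac7 and Ncor1, cover up to 3.23% of the exon bases.

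**Figure D3:**
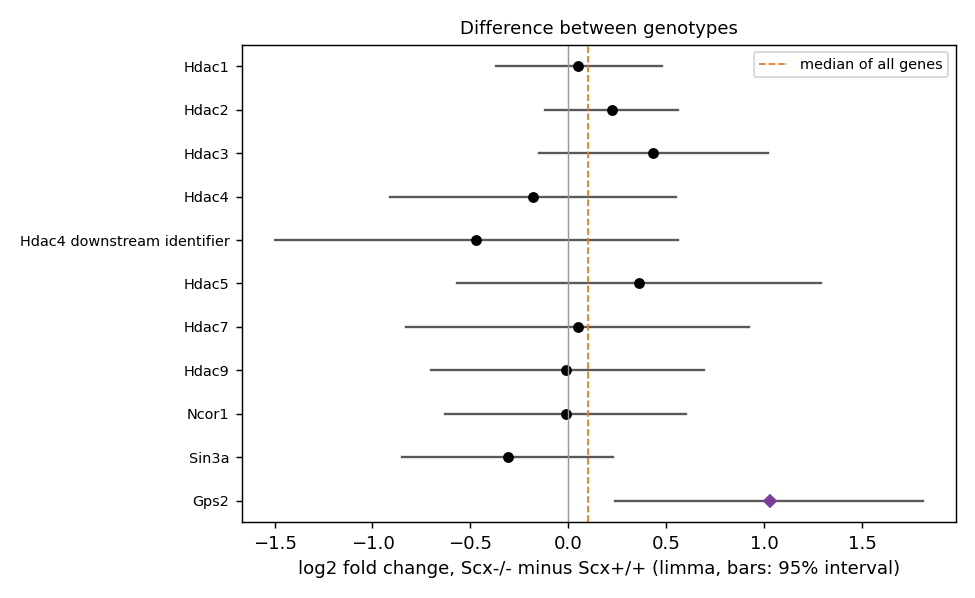
Log2 fold change (points) with its 95% confidence interval (bars) from limma for each identifier and, as a purple diamond, for Gps2. The dashed line is the median of all genes (0.10), and each of the 10 intervals includes 0.

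Precision differed between the genes. In 7 of the 10 identifiers the 95% interval lay within 2-fold in either direction, and the half-width ran from 0.34 for Hdac2 to 1.03 for the downstream Hdac4 identifier. A p above the threshold does not show equal levels, and differences of the size of these intervals were not detectable with 3 libraries per genotype.

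Of the 10 identifiers, 6 (Hdac1, Hdac5, Hdac7, Hdac9, Ncor1 and Sin3a) had their lowest RPKM in the same pair of libraries, Scx-/- replicate 3 and Scx+/+ replicate 2. The lowest library was Scx-/- replicate 3 for 4 identifiers, Scx+/+ replicate 2 for 4 and Scx+/+ replicate 3 for 2. Among the 8 identifiers whose mean reached 1 RPKM, 6 had their minimum in either of the first pair, beside 42.9% of the 13827 genes at this level. For 5 of the 8 the pair were both the lowest libraries, beside 19.5% of those genes. The pair was picked after these values were seen, so these counts describe the identifiers and test nothing. With library medians set to 0 and each gene centred on its mean, the identifiers deviated on average by 0.17, 0.0 and -0.32 on the log2 scale in the Scx-/- libraries and by 0.12, -0.20 and 0.22 in the Scx+/+ libraries. The other identifiers did not follow this course. Hdac2 was slightly above its mean in both low libraries (0.05 and 0.04), Hdac4 was highest in Scx+/+ replicate 2 (0.37), and Hdac2 and Hdac3 had their lowest RPKM in Scx+/+ replicate 3. Hdac2 and Hdac1 deviated least, by -0.13 to 0.15 and by -0.09 to 0.19. The low pair was not particular to these identifiers. Among related lists described below, other histone deacetylases summed to 6.06 RPKM in Scx-/- replicate 3 and 6.77 in Scx+/+ replicate 2. They summed to 8.8 to 9.78 RPKM elsewhere. Sums of NCoR partners, NuRD and CoREST subunits, MEF2 factors, and export kinases with 14-3-3 proteins were also lowest in this pair. Those of sirtuins, Sin3 subunits and histone acetyltransferases were not lowest in both.

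**Figure D4:**
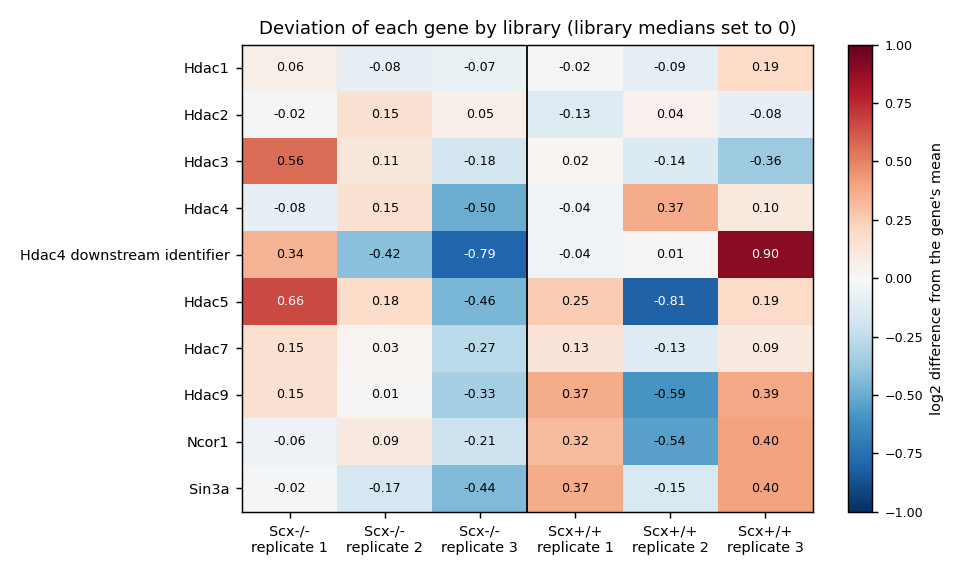
Deviation of each identifier (rows) in each library (columns) from its own mean, on the log2 scale after library medians were set to 0, with red above and blue below the mean. Hdac5, Hdac9 and Ncor1 are low in Scx-/- replicate 3 and Scx+/+ replicate 2, and Hdac2 stays between -0.13 and 0.15.

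The summed RPKM of 10 cardiomyocyte markers was 22176, 18511 and 26796 RPKM in the Scx-/- libraries and 18669, 29257 and 16429 RPKM in the Scx+/+ libraries, highest in the pair of libraries where those 6 identifiers were lowest. Myh6, the alpha myosin heavy chain, was 1556 RPKM in Scx-/- replicate 3 and 2219 RPKM in Scx+/+ replicate 2, beside 900.4 to 1147 RPKM elsewhere. The sum weighs strong genes most, with means of 8453 RPKM for Myl2 and 4972 RPKM for Tnnt2. All 10 markers were measured, none at the fill-in value, and 1 was called, Ryr2, the calcium release channel, which was lower in Scx-/- (log2 fold change -0.46, limma unadjusted p = 0.0308, adjusted p = 0.967, exact permutation p = 0.1). Ryr2 was 34.3, 31.7 and 44.2 RPKM in the Scx-/- libraries and 49.3, 45.8 and 55.9 RPKM in the Scx+/+ libraries. It did not follow the sum, and was highest in Scx+/+ replicate 3, where the sum was lowest. The part of muscle tissue in the levels of these genes was not tested.

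Other cell types were present in both genotypes. Markers of cushion and valve mesenchyme (9 of 9 measured, 0 called) summed to 438 to 576 RPKM in Scx-/- and 409.8 to 457 in Scx+/+, most of it from Postn, which encodes the valve matrix protein periostin, at 161 to 387 RPKM (log2 fold change 0.51), and Col3a1. The median log2 fold change of this list was -0.01 with 5 of 9 values below 0. Without overlap, Col1a1 was lower in Scx-/- (-0.50) and Prrx1 higher (0.46), both named after their values were seen. Endothelial markers (8 of 8, 0 called) summed to 130.3 to 156 and 127 to 146 RPKM. Epicardial markers (5 of 5) summed to 27.9, 29.9 and 18.5 RPKM in the Scx-/- libraries and 21.8, 14.8 and 22.6 RPKM in the Scx+/+ libraries. This sum was lowest in the pair of libraries where the 6 identifiers were lowest, and the part of these cells was not tested. Of the epicardial markers 1 was called higher, Upk1b (log2 fold change 0.61, limma unadjusted p = 0.0378, adjusted p = 0.967, exact permutation p = 0.1). Erythroid markers (6 of 7, 0 called) summed to 2736 to 4407 and 2549 to 4286 RPKM. Macrophage markers (6 of 6) summed to 9.44 to 15.5 and 8.31 to 11.7 RPKM with 1 called higher, Cd68 (log2 fold change 1.48, limma unadjusted p = 0.029, adjusted p = 0.967, exact permutation p = 0.1), which was at the fill-in value in Scx+/+ replicate 2.

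Some pairs of genes varied together over libraries and others in opposite directions. The ratio of Hdac9 to Ncor1 was 0.817, 0.665 and 0.648 in the Scx-/- libraries and 0.730, 0.680 and 0.698 in the Scx+/+ libraries. It varied by 1.26-fold, while each gene alone varied by 2.08-fold and 1.94-fold. Over the 6 libraries, which share library effects, Pearson's r on the centred scale was 0.96 for Hdac9 and Ncor1, 0.88 for Hdac1 and the downstream Hdac4 identifier, 0.86 for Hdac5 and Hdac7, and 0.81 for Sin3a and Hdac9. Hdac2 was most like Hdac3, at 0.10, and ran against most others, at -0.80 with Sin3a, -0.62 with Hdac9, -0.59 with Hdac1 and -0.52 with Ncor1. Of 13827 genes, those most like the mean of the 10 identifiers were Pole, the catalytic subunit of DNA polymerase epsilon (r = 0.995), Csnk1d, a casein kinase (0.994), and Hand2, a basic helix-loop-helix factor of the heart (0.993), as the highest of many values over 6 points.

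Beyond these genes, partners were taken from 9 lists of the same pathways with 84 symbols, of which 78 were measured. Of the 78, 1 was called (1.28%), Gps2, which was higher in Scx-/-, and the median log2 fold change was 0.03, with 43 above 0 and 35 below. Without overlap between genotypes were 5 higher and 4 lower, beside 7.19% and 2.31% of all genes.

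The NCoR complex partners (4 of 5 measured, median log2 fold change 0.19) held the only call of these lists. Gps2 (ENSMUSG00000023170, chr11:69727390-69730093, plus strand, mm9), a subunit that joins Ncor1 and Hdac3 in the core complex, was 5.22, 4.80 and 4.65 RPKM in the Scx-/- libraries and 3.46, 1.32 and 2.82 RPKM in the Scx+/+ libraries. All Scx-/- libraries were above all Scx+/+ libraries, also with library medians set to 0. The log2 fold change was 1.03 (SE 0.35, 95% confidence interval 0.24 to 1.81, limma unadjusted p = 0.0162, adjusted p = 0.967, exact permutation p = 0.1), on 98 to 516 reads. Gps2 was not called once Scx-/- replicate 1, 2 or 3 was left out, and its log2 fold change was 0.63 (without Scx+/+ replicate 2) to 1.29 with each of the 6 libraries left out in turn.

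Tbl1x, Tbl1xr1 and Zbtb33, the other partners measured, were not called and had log2 fold changes of -0.26 to 0.19. In the plot of the NCoR complex, Gps2 stood apart by genotype while its scaffold Ncor1 and its enzyme Hdac3 overlapped.

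**Figure D5:**
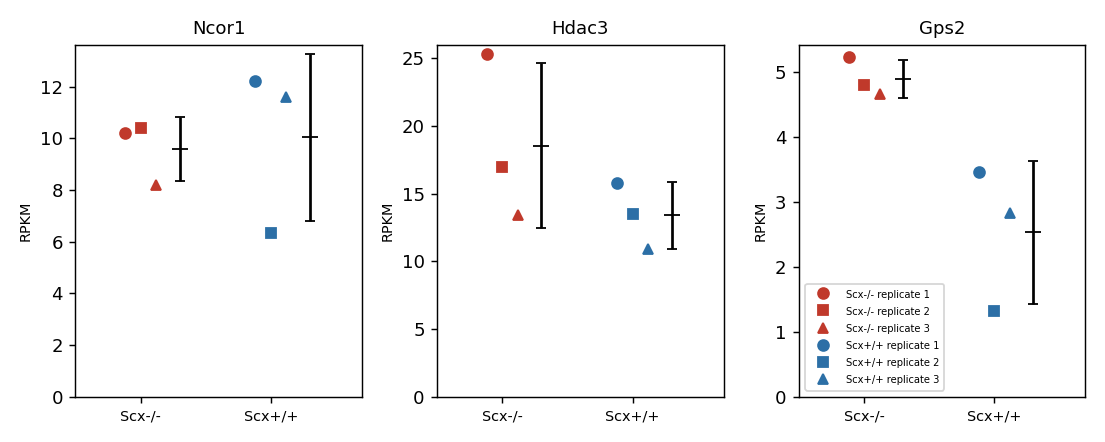
RPKM of Ncor1, Hdac3 and Gps2 per library (points, shape per replicate, linear axes from 0), with the mean and SD of each genotype (black, n = 3). Ncor1 and Hdac3 overlap between genotypes, while Gps2 is 4.65 to 5.22 RPKM in Scx-/- and 1.32 to 3.46 in Scx+/+.

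Further deacetylases had means of 1.05 to 3.61 RPKM and were not called. Hdac6, the tubulin deacetylase, was 4.32, 4.12 and 2.44 RPKM in the Scx-/- libraries and 4.34, 2.84 and 3.60 RPKM in the Scx+/+ libraries, with the same low pair of libraries (log2 fold change -0.01, limma adjusted p = 0.999). In this list of 4, which includes the class I enzyme Hdac8 (-0.30, limma adjusted p = 0.968), the median log2 fold change was -0.08 and all 4 values were below 0. The 7 sirtuins, which are NAD-dependent deacetylases, had a median of 0.22 with 0 called, and the smallest p was that of Sirt7 (0.61, limma adjusted p = 0.967), which was called once Scx+/+ replicate 1 was left out (0.96).

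In the complexes that hold Hdac1 and Hdac2, no subunit was called in the main limma fit, with all 6 libraries and no covariates. The 12 Sin3 complex subunits had a median log2 fold change of 0.04, and the smallest p was that of Sap30l (0.64, limma adjusted p = 0.967). In 12 of 13 NuRD complex subunits the median was 0.10, with Gatad2b at -0.62 (limma adjusted p = 0.967), and in 9 CoREST complex subunits it was 0.08, with Phf21a at -0.39 (limma adjusted p = 0.967). Sap30l was called with the replicate block and without Scx+/+ replicate 1 (1.04), but was 0.37 without Scx+/+ replicate 2, and Gatad2b was called without Scx-/- replicate 1 (-0.97). Brms1l of the Sin3 list (0.31) and Rbbp7 of the NuRD list (0.23), named after their values were seen, were higher in Scx-/- without overlap.

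On the side of the class IIa enzymes, 3 of 4 MEF2 factors were measured and 0 called. Mef2d was 3.04, 2.30 and 2.16 RPKM in the Scx-/- libraries and 3.19, 3.10 and 4.14 RPKM in the Scx+/+ libraries. All Scx-/- values were below the wild-type values by a narrow margin (log2 fold change -0.46, limma adjusted p = 0.967), and Mef2d was called after median (-0.57) and quantile (-0.54) scaling. The kinases and 14-3-3 proteins that export class IIa enzymes (17 of 20 measured, 0 called) had a median log2 fold change of -0.11. Ywhag, which encodes 14-3-3 gamma, had the smallest p of this list (-0.41, limma adjusted p = 0.967), and it was lower without overlap together with Prkd2 (-0.93) and Sik2 (-0.41), which were named after their values were seen. Ywhag was called in 5 of 17 alternatives, among them median (-0.52) and quantile (-0.52) scaling, removal of length and GC trends (-0.47) and the fit without Scx-/- replicate 1 (-0.54).

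The opposing enzymes, 10 histone acetyltransferases, had a median log2 fold change of 0.13 with 0 called. Hat1, which acetylates newly made histones, was 59.1, 46.5 and 55.6 RPKM in the Scx-/- libraries and 43.5, 44.0 and 37.3 RPKM in the Scx+/+ libraries. It was higher in every Scx-/- library (log2 fold change 0.37, SE 0.17, limma adjusted p = 0.967). It was called without Scx+/+ replicate 2 (0.41) or Scx-/- replicate 2 (0.47), and was 0.18 after removal of length and GC trends, 0.26 with median and 0.24 with quantile scaling. Kat8, named after its values were seen, was also higher without overlap (0.57).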

How the data were processed

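RNA of 6 dissected atrioventricular canal regions was sequenced on an Illumina instrument. The authors aligned reads to mm9 with TopHat 1.4.1, counted those within Ensembl exons by easyRNASeq and deposited RPKM per gene. Genes below a minimum read number in every library were dropped and the lowest values overwritten, seen in the table as a fill-in of 0.0949 RPKM. RPKM adjust for exon length and depth but not for a few very abundant genes, and short or weakly expressed genes rest on few reads.

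Columns were matched to genotypes by their labels. Of the 18810 identifiers, 18695 had an entry in GENCODE for mm9, from which symbols, coordinates and exon lengths were taken. RPKM times exon length gave whole reads (tolerance 0.1) for 98.45% to 98.56% of values under 1000 reads and so the depth and reads per gene. No count test was run. Genotypes were compared on log2(RPKM + 0.1) with limma 3.58.1 (R 4.3.3), two-sided and without covariates, with variances moderated along an intensity trend and p-values adjusted after Benjamini-Hochberg over all genes. It was tested on simulated data. Intervals are 95% intervals of this fit. Other steps used scipy 1.17.1, pandas 2.3.3, numpy 2.4.6 and, for plots, matplotlib 3.10.9, all under Python 3.11.15. Near-copies were sought by aligning the transcripts of the genes to mm9 with minimap2 2.31, at 500 or more matching bases and at least 90% identity.

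The genes and lists were chosen with earlier results of these data known, so no list was tested as a set. Named are the 9 genes, Hdac6, Scx, of each related list the called genes or otherwise the gene with the smallest p, and the genes most alike over libraries. Of the genes this rule names, 1 is not reported here. The related lists were other histone deacetylases, sirtuins, NCoR complex partners, Sin3, NuRD and CoREST complex subunits, MEF2 factors, class IIa export kinases and 14-3-3 proteins, and histone acetyltransferases. Markers of 6 cell types were described by their sums, outside this rule. Alternatives were pseudocounts of 0.01 and 1, a mean of at least 1 RPKM, no trend, one-way ANOVA on log2 values, and median and quantile scaling. Further ones were removal of length and GC trends, sex as a covariate, a replicate block, and each library left out. Sex was inferred from expression, by comparing Xist with Y-linked RPKM, which gave replicate 2 of each genotype as female. Leaving out Scx-/- replicate 3 and Scx+/+ replicate 2 together was added after seeing the data.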

Additional observations from a re-analysis of the deposited data

How the results depend on the processing

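The number of genes called was 731 and ran from 539 to 1549 with 1 library left out, the highest without Scx+/+ replicate 2. It was 1587 with Scx-/- replicate 3 and Scx+/+ replicate 2 left out together, a choice made after seeing the data. Of the 10 identifiers, 1 was called by one-way ANOVA (Hdac2), beside 865 of all 18810 genes. With that pair left out 1 was called (Hdac2, log2 fold change 0.31), and with any 1 library left out 0. The cause was not tested. The median log2 fold change of the identifiers stayed between -0.09 and 0.14.

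Some values near 0 changed sign. Hdac1 was -0.07 after removal of length and GC trends, -0.06 with median scaling and -0.04 with quantile scaling, and -0.04 to 0.11 with 1 library left out. Hdac7 was -0.06 with median and -0.01 with quantile scaling, and -0.09 to 0.20 with 1 library left out. Ncor1 was 0.06 after removal of length and GC trends, and -0.32 to 0.15 with 1 library left out. Hdac9 ran from -0.33 to 0.19, Hdac4 from -0.32 to 0.03 and Hdac6 from -0.16 to 0.25 with 1 library left out, and with the pair left out Hdac4 was 0.15 and Hdac6 0.09. By one-way ANOVA Hat1 and Ywhag were called and Gps2 was not, whose log2 fold change was 0.63 to 1.29 with 1 library left out. Hdac2, Hdac3, Hdac5 and Sin3a did not change sign in 17 alternatives, but the size moved, over 0.09 to 0.31 for Hdac2, 0.19 to 0.65 for Hdac3, 0.01 to 0.69 for Hdac5 and -0.49 to -0.16 for Sin3a, and the downstream Hdac4 identifier ran from -0.83 to -0.18.

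Same-numbered libraries correlated at 0.09, -0.22 and -0.19 in their deviations from the genotype means, which gave no sign of pairing by number. Deviations within a genotype sum to 0, and Scx-/- replicate 3 with Scx+/+ replicate 2 reached 0.32. These values therefore cannot exclude pairing by litter. With the replicate block, 573 genes and 0 identifiers were called. The filter at a mean of 1 RPKM gave no value for Hdac7 or the downstream Hdac4 identifier. With 3 libraries per genotype, wide intervals of Hdac4, Hdac5 and Hdac7 limit what can be said of them, and levels of Hdac1 depend on how reads of its near-copies were assigned.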
